A study of Mus musculus with 3 samples.

Results

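The H3K4me3 peaks of chromosomes 4, 12 and 16 were described in MLg cells, an established fibroblast line from mouse lung. They comprise every peak whose deposited chromosome was 4, 12 or 16. They numbered 364 of 4959 peaks in TGFB1+miR-9-LOF, 1101 of 9116 in TGFB1 and 1026 of 8727 in Ctrl. Merged where they overlapped, they formed 1132 of 9316 regions, with 566 regions on chromosome 4, 293 on chromosome 12 and 273 on chromosome 16. The 3 chromosomes were chosen by measured values of these same lists, in which they had the 3 lowest shares of TGFB1 peaks that were also called in TGFB1+miR-9-LOF among the 19 autosomes. Those shares, and the peak numbers, lengths and scores of the same lists, are therefore given as description. The 16 other autosomes, with 4557, 7764 and 7489 peaks in TGFB1+miR-9-LOF, TGFB1 and Ctrl, are the background throughout.

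TGFB1+miR-9-LOF cells received an antagomiR, an antisense probe that blocks a microRNA, against miR-9 at 60 nM, and TGFB1 at 5 ng/ml for the last 4 h before harvest at 24 h. TGFB1 cells received the same cytokine dose over the same 4 h, and Ctrl cells carry the label WT in the treatment field. The study describes the untreated cells of this assay as transfected with a control antagomiR. The labels do not state for each library whether that probe was present in the TGFB1 and in the Ctrl cells. There was 1 library per group, 1 cell line and no stated input, so the differences carry no replicate check and no p-value was computed. The lists hold peak positions and scores and no reads, so the read depth behind each value is unknown, and a difference in depth between libraries cannot be told apart from a difference in the mark.

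Fibroblast identity was visible in the lists. Of 13 fibroblast marker genes, 8 had a promoter peak in TGFB1+miR-9-LOF, 9 in TGFB1 and 9 in Ctrl, among them the collagen genes Col1a1 and Col1a2, while Col3a1, Thy1, Tcf21 and Twist1 had none in the TGFB1 list. None of 10 lung epithelial and none of 8 endothelial markers had a peak in any list, and 1 of 8 immune (Cd14) and 1 of 7 neural markers (Syt1) had a peak in TGFB1 and in Ctrl.

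H3K4me3 is placed on nucleosomes around transcription start sites by SET1 and MLL family methyltransferases, and sits mostly over CpG-rich promoters of genes that are transcribed or poised. Longer H3K4me3 domains are known from genes of cell identity and from genes of high transcription. TGFB1 drives fibroblasts towards a contractile, matrix-producing state, and the study asked whether nuclear miR-9 was needed for H3K4me3 at the promoters that respond to it. Mouse chromosome 4 carries the type I interferon and major urinary protein gene clusters, chromosome 12 the immunoglobulin heavy chain locus, and chromosome 16 a stretch with conserved gene order to human chromosome 21.

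Promoter sequences are shown for a pair of genes per chromosome, the first with the highest-scoring TGFB1 peak that was kept in TGFB1+miR-9-LOF among those reported here and the second with the longest TGFB1 peak that was not. Each window runs from 250 bases before to 50 bases after the start site, 5′ to 3′ on the strand of the gene, from RefSeq (GRCm38.p6), with CpG dinucleotides in capitals.
Rpp25l (chr4:41713468-41713767, minus strand): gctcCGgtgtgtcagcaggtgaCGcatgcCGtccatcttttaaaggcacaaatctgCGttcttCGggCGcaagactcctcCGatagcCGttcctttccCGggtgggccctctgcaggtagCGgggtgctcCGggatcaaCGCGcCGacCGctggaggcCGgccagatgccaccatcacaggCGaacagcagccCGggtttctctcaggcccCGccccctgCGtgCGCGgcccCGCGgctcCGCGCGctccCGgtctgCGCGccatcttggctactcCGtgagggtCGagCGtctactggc
Gpbp1l1 (chr4:116557408-116557707, plus strand): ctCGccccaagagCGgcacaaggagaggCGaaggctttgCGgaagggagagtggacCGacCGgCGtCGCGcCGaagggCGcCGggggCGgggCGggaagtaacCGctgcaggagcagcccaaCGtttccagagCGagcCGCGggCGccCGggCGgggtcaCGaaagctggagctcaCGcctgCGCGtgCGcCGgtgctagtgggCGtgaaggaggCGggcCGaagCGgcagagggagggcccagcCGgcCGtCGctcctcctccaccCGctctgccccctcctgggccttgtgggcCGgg
Klhdc2 (chr12:69296431-69296730, plus strand): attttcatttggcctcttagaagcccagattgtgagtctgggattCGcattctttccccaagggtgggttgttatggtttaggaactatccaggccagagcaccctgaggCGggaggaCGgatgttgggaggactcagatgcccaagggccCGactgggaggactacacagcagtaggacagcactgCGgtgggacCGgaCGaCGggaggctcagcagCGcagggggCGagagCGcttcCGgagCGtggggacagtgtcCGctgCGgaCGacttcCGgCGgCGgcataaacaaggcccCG
Togaram1 (chr12:64965492-64965791, plus strand): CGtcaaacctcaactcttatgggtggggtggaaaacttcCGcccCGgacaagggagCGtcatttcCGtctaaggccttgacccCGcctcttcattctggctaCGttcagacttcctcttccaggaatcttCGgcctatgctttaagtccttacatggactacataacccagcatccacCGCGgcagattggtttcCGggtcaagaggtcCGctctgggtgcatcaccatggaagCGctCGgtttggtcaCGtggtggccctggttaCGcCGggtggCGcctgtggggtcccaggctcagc
Pdia5 (chr16:35490824-35491123, minus strand): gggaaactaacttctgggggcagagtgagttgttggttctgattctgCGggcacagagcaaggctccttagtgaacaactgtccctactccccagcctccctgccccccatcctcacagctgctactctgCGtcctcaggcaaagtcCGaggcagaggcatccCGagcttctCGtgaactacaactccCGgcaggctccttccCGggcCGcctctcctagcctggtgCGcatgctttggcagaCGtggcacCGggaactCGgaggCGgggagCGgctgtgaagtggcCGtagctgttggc
Alg3 (chr16:20610712-20611011, minus strand): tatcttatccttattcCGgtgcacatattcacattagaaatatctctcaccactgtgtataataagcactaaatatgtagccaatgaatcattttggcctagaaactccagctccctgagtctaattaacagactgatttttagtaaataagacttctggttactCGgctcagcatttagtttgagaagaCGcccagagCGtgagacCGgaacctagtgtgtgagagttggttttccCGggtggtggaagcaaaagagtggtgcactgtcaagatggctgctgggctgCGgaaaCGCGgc
Rpp25l encodes a protein related to a subunit of ribonuclease P, Klhdc2 a substrate receptor of a ubiquitin ligase and Pdia5 a protein disulfide isomerase of the endoplasmic reticulum. Gpbp1l1 encodes a relative of a GC-rich promoter binding protein, Togaram1 a protein of the ciliary axoneme and Alg3 a mannosyltransferase of N-glycan assembly. CpG content did not separate the kept promoters of this set from the others. The kept windows of Rpp25l, Klhdc2 and Pdia5 held 33, 20 and 15 CpG dinucleotides, and the windows of Gpbp1l1, Togaram1 and Alg3, which had no TGFB1+miR-9-LOF peak, held 37, 18 and 9. Over all 31365 autosomal windows the median was 7, and over the windows under a TGFB1 peak it was 24.

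Peaks followed the genes on all 3 chromosomes, and the chromosomes differed in how many they carried. Chromosome 4 had 1.34 peaks per Mb in TGFB1+miR-9-LOF, 3.52 in TGFB1 and 3.25 in Ctrl. Chromosome 12 had 0.72 peaks per Mb in TGFB1+miR-9-LOF, 2.35 in TGFB1 and 2.22 in Ctrl. Chromosome 16 had 0.68 peaks per Mb in TGFB1+miR-9-LOF, 2.73 in TGFB1 and 2.55 in Ctrl. The 16 other autosomes together had 2.18 peaks per Mb in TGFB1+miR-9-LOF, 3.72 in TGFB1 and 3.59 in Ctrl, with a range of 2.35 (chromosome 14) to 6.33 (chromosome 11) over single chromosomes in TGFB1. Chromosome 12 was also the autosome with the fewest protein-coding genes per Mb, 5.35, against 6.76 on chromosome 16 and 8.48 on chromosome 4, and against 5.66 to 13.91 on the others.

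Per gene, the TGFB1 and Ctrl lists were close to the background and the TGFB1+miR-9-LOF list was not. Per 100 protein-coding genes the 3 chromosomes together carried 13.8 peaks in TGFB1+miR-9-LOF, 41.8 in TGFB1 and 38.95 in Ctrl, against 25.1, 42.7 and 41.2 on the 16 other autosomes in the same order of libraries. A start site within 500 bp of a peak was found for 16.4% of 2634 protein-coding genes in TGFB1+miR-9-LOF (95% Wilson interval 15 to 17.8), for 45.7% in TGFB1 (43.9 to 47.7) and for 43.1% in Ctrl (41.2 to 45.03). The shares over the 18173 genes of the other autosomes were 28.6% in TGFB1+miR-9-LOF (27.9 to 29.3), 45.3% in TGFB1 (44.6 to 46.0) and 44.1% in Ctrl (43.4 to 44.8). Wilson intervals here cover counting error over genes or peaks, which are not replicates.

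In bins of 10 Mb the number of TGFB1 peaks followed the number of genes. Pearson's r between the gene and peak numbers was 0.92 over 16 bins of chromosome 4, 0.94 over 13 bins of chromosome 12 and 0.94 over 10 bins of chromosome 16, where neighbouring bins share a chromosome and a library. The last bin of each chromosome was shorter than 10 Mb. That of chromosome 12 spanned only 120 to 120.129 Mb, with 0 genes and 0 peaks, and was included. The densest bin lay at 130 to 140 Mb on chromosome 4, with 33 peaks in TGFB1+miR-9-LOF, 95 in TGFB1 and 86 in Ctrl. On chromosome 12 it lay at 80 to 90 Mb, with 17 peaks in TGFB1+miR-9-LOF, 53 in TGFB1 and 48 in Ctrl. On chromosome 16 it lay at 10 to 20 Mb, with 15, 55 and 50 peaks in the same order.

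**Figure D1:**
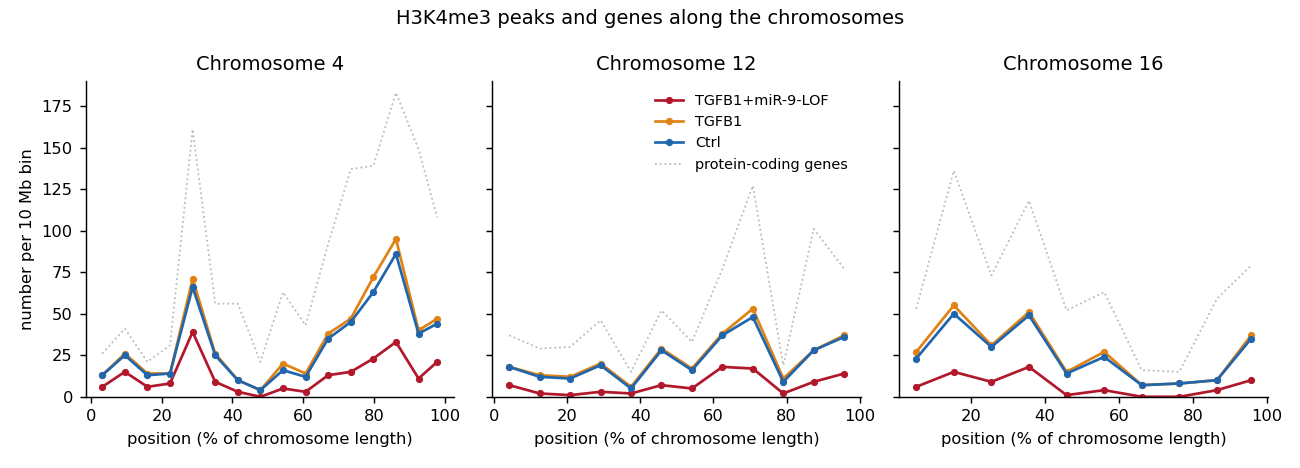
Number of H3K4me3 peaks per 10 Mb bin (y axis) against the position of the bin in percent of chromosome length (x axis) on chromosomes 4, 12 and 16, for the TGFB1+miR-9-LOF, TGFB1 and Ctrl libraries, 1 each, with the number of protein-coding genes as a dotted line and without a last bin under 5 Mb. The TGFB1 and Ctrl lines run close together, up to 95 and 86 peaks on chromosome 4, and the TGFB1+miR-9-LOF line stays at or below 39.

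The longest stretches without a peak in any list were gene-poor. On chromosome 4, 6.66 Mb between Kdm4c and Lurap1l held 3 protein-coding genes (Dmac1, Ptprd and Tyrp1), of which Ptprd encodes a receptor phosphatase of synapses and Tyrp1 a melanosome protein. On chromosome 12, 5.75 Mb between Fbxo33 and Togaram1 held 3 genes (Lrfn5, Fscb and Gm527). On chromosome 16, 6.13 Mb between D16Ertd472e and Mir155hg held 5, including the neural adhesion gene Ncam2. The longest such stretch of each other autosome was between 4.01 and 10.2 Mb, with a median of 6.30 Mb. A stretch of 4.20 Mb on chromosome 4, from Mtap to Tusc1, held the tumour suppressor genes Cdkn2a and Cdkn2b, which had no peak in any of the 3 lists.

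Tissue-restricted gene clusters carried almost no H3K4me3 peaks. On chromosome 4, 18 type I interferon, 22 major urinary protein, 11 Skint, 10 Cyp4 and 24 olfactory receptor genes had no peak at a start site in any list. On chromosome 12, no peak lay at 23 Serpina genes in any list, and 1 of 217 immunoglobulin heavy chain genes had a peak, in Ctrl. On chromosome 16, 12 immunoglobulin lambda, 24 keratin-associated protein and 36 olfactory receptor genes had none. Of the Zfp genes, which encode zinc finger proteins and are spread over many loci, chromosome 4 had a peak at 3 of 30 in TGFB1+miR-9-LOF, at 10 in TGFB1 and at 9 in Ctrl. Chromosome 12 had one at 2 of 5 Zfp genes in TGFB1+miR-9-LOF, at 5 in TGFB1 and at 5 in Ctrl, and chromosome 16 at 1 of 5 in TGFB1+miR-9-LOF, at 4 in TGFB1 and at 4 in Ctrl.

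Peaks of the 3 chromosomes were shorter and lower-scoring than those of the pooled other autosomes in each list. The median peak length in TGFB1 was 1650 bp on chromosome 4 (95% order-statistic interval 1621 to 1694), 1642.5 bp on chromosome 12 (1599 to 1721) and 1628 bp on chromosome 16 (1584 to 1667), against 1767 bp over the 16 other autosomes (1758 to 1775). The single other autosomes ranged between 1688.5 bp (chromosome 14) and 1832 bp (chromosome 19). In Ctrl the medians were 1595 bp on chromosome 4, 1604 bp on chromosome 12 and 1534 bp on chromosome 16, against 1711 bp on the others. In TGFB1+miR-9-LOF they were 1242.5, 1231 and 1170 bp on chromosomes 4, 12 and 16, against 1353 bp on the others, of which chromosome 14, with 1230 bp, was below chromosomes 4 and 12.

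The deposited peak score, a value of the peak caller that rises with enrichment and is not scaled between libraries, was also low. Its TGFB1 median was 74 on chromosome 4 (interval 71 to 76), 66 on chromosome 12 (63 to 71) and 65 on chromosome 16 (62 to 68), against 94 on the 16 other autosomes (93 to 95), whose single medians lay between 77 (chromosome 14) and 108 (chromosome 11). In Ctrl it was 66, 62 and 60 on chromosomes 4, 12 and 16, against 84 on the others, whose lowest was 69 (chromosome 18). In TGFB1+miR-9-LOF it was 41, 38 and 40, against 47, with a lowest of 43 on a single other autosome (chromosome 14). The 3 chromosomes thus had the 3 lowest median scores of the 19 autosomes in every list, including the Ctrl list. Whether they differ from the others in copy number, the number of copies per cell, was not tested.

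Broad peaks, here 2.7 kb or longer as the study defined them, were few on these chromosomes, less so on chromosome 12. The study took that limit from the upper quartile of peak size in its merged peak list. In the lists used here a far smaller share reached it, also on the other autosomes. There were 0 among 364 peaks in TGFB1+miR-9-LOF (Wilson interval up to 1.04%), 6 of 1101 in TGFB1 (0.545%, 0.250 to 1.18) and 7 of 1026 in Ctrl (0.682%, 0.331 to 1.40). On the 16 other autosomes there were 5 of 4557 in TGFB1+miR-9-LOF, 181 of 7764 in TGFB1 (2.33%, 2.02 to 2.69) and 129 of 7489 in Ctrl (1.72%, 1.45 to 2.04). By chromosome, the broad shares on chromosomes 4, 12 and 16 were 0.363%, 1.06% and 0.373% in TGFB1 and 0.786%, 1.124% and 0% in Ctrl, and chromosome 12 ranked 7 of 19 autosomes from the lowest in TGFB1 and 10 of 19 in Ctrl. Medium peaks, of 2 kb up to that limit, made up 0.824% in TGFB1+miR-9-LOF, 15.5% in TGFB1 and 11.8% in Ctrl, against 3.45%, 22.4% and 18.5% on the others. The share at promoters, within 2 kb of a start site, was 98.4% in TGFB1+miR-9-LOF, 96.0% in TGFB1 and 97.0% in Ctrl, against 97.1%, 94.9% and 95.5% on the others.

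A TGFB1 peak is called kept where at least 1 bp of it lay under a TGFB1+miR-9-LOF peak. Chromosome 4 kept 209 of 551 peaks (37.9%, Wilson interval 34.0 to 42.1), chromosome 12 kept 87 of 282 (30.9%, 25.7 to 36.5) and chromosome 16 kept 67 of 268 (25%, 20.2 to 30.5). The 16 other autosomes kept 4548 of 7764 (58.6%, 57.5 to 59.7). Just outside the 3 chromosomes stood chromosome 18 with 39.0%, and the highest was chromosome 19 with 70.0%. Chromosome X, which is not in the background, kept 38 of 251 (15.1%), less than any of the 3. Of the Ctrl peaks, 40.7%, 32.6% and 26.4% on chromosomes 4, 12 and 16 had a TGFB1+miR-9-LOF peak, against 60.5% on the others. Counted over regions, 738 of 1101 TGFB1 regions on the 3 chromosomes were lost in TGFB1+miR-9-LOF (67.0%, 64.2 to 69.7), against 41.4% on the 16 other autosomes, and 666 of 1026 Ctrl regions (64.9%), against 39.4%. Since the chromosomes were chosen by this share, nothing is read from that difference.

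Almost every TGFB1+miR-9-LOF peak lay on a TGFB1 peak. In all, 1 region of the 3 chromosomes, at Anp32b (chromosome 4), was covered in TGFB1+miR-9-LOF and not in TGFB1 (0.275% of 364), against 0.198% on the other autosomes. It had 1000 bp in TGFB1+miR-9-LOF, the shortest length a peak had in these lists, no peak in TGFB1 and 1726 bp in Ctrl. All 87 TGFB1+miR-9-LOF peaks of chromosome 12 and all 67 of chromosome 16 had a TGFB1 peak.

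Low-scoring peaks were kept less often on each of the 3 chromosomes and on the 16 other autosomes pooled, so the shares were also set against the rates of the 16 other autosomes at like TGFB1 score. Of the TGFB1 peaks of the 3 chromosomes, 31.1% had a score of 58 or less, against 16.5% on the other autosomes, and 4.09% had a score of 124 or more, against 22.9%. With the rates of the other autosomes in these 5 score bins, chromosome 4 would have kept 43.2% (observed 37.9%), chromosome 12 would have kept 36.2% (observed 30.9%) and chromosome 16 would have kept 35.7% (observed 25%). The observed share minus this share was thus -5.27, -5.38 and -10.7 percentage points on chromosomes 4, 12 and 16. On single other autosomes the same difference ran between -8.08 points (chromosome 18) and 2.64 points (chromosome 10), so chromosome 18 lay between chromosomes 16 and 12. On chromosome X it was -12.6 points. Binned by Ctrl score, the expected shares were 47.5%, 42.3% and 40.8% among peaks shared with Ctrl, against observed shares of 41.7%, 34.0% and 26.9%. The chromosomes were chosen by a low kept share, which by itself favours observed shares below the expected ones. All these differences are therefore given as description.

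**Figure D2:**
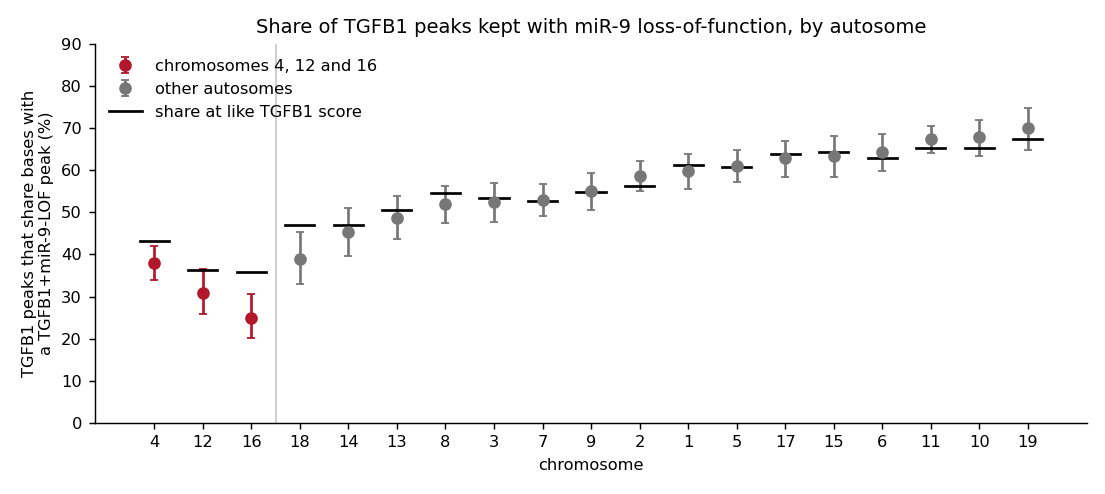
Share of TGFB1 peaks that share bases with a TGFB1+miR-9-LOF peak (y axis, percent, with 95% Wilson intervals over peaks) for chromosomes 4, 12 and 16 and then for the 16 other autosomes in rising order (x axis). Black bars give the share each chromosome would have with the rates of the 16 other autosomes at like TGFB1 score, and lie at 43.2%, 36.2% and 35.7% for chromosomes 4, 12 and 16, above the observed 37.9%, 30.9% and 25%.

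Within score bins the 3 chromosomes lay on or below the background. At scores of 23 to 58 they kept 37 of 342 peaks (10.8%, 7.95 to 14.6), against 11.7% of 1283 on the other autosomes (10.05 to 13.6). At 59 to 78 they kept 25.5% (21.2 to 30.3), against 34.1% (31.7 to 36.6). At 79 to 98 they kept 48.5% (42.3 to 54.8), against 56.9% (54.5 to 59.4), and at 99 to 123 they kept 64.3% (55.6 to 72.1), against 78.5% (76.5 to 80.4). At 124 and above, 40 of 45 peaks were kept (88.9%, 76.5 to 95.2), against 93.2% (92.0 to 94.3). These shares are parts of the value by which the chromosomes were chosen, and their intervals are not used as a test.

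**Figure D3:**
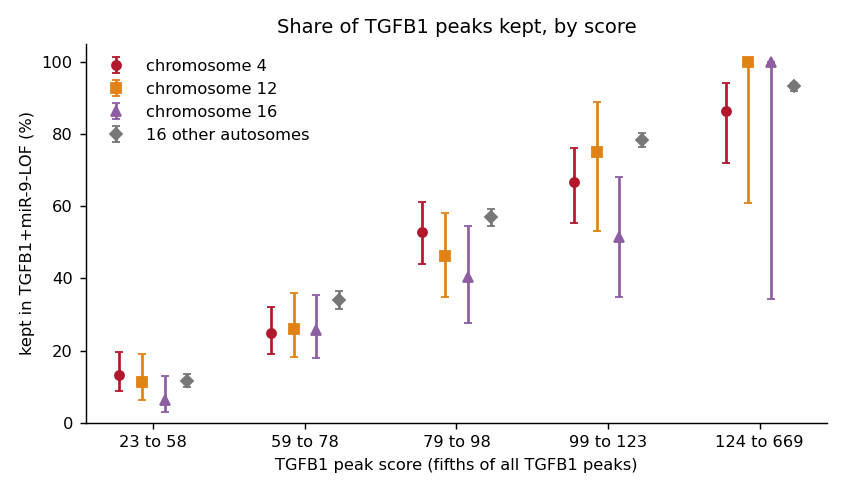
Share of TGFB1 peaks kept in TGFB1+miR-9-LOF (y axis, percent, with 95% Wilson intervals over peaks) in 5 bins of TGFB1 peak score (x axis), for chromosomes 4, 12 and 16 and for the 16 other autosomes. In each group the share is higher at higher scores, with 11.7% in the lowest and 93.2% in the highest bin of the other autosomes, and chromosomes 12 and 16 have 6 and 2 peaks in the highest bin.

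Chromosome 4 changed along its length. In bins of 5 Mb with at least 5 TGFB1 peaks, the median TGFB1 score lay between 88 and 125 in the 7 bins up to 45 Mb, and between 55.5 and 80 in the 19 bins beyond it. The medians of chromosome 12 lay between 56 and 82 over 18 such bins, and those of chromosome 16 between 49 and 78 over 16. The Ctrl list had the same step on chromosome 4, with medians of 77 to 91 up to 45 Mb and of 49 to 67 beyond. The minimum left out the chromosome 4 bins at 25 to 30 Mb and at 35 to 40 Mb, with 3 TGFB1 peaks each. Their TGFB1 medians, 60 and 62, lay within the range beyond 45 Mb. Their Ctrl medians were 85 and 112, from 3 and 1 peaks. The limit of 45 Mb was set after these scores were seen, so both parts are described without a test.

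The first 45 Mb of chromosome 4 resembled the other autosomes, and the rest resembled chromosomes 12 and 16. Up to 45 Mb the median TGFB1 score was 102 (interval 91 to 111), the median TGFB1 length was 1797 bp and 66 of 116 TGFB1 peaks were kept (56.9%, 47.8 to 65.5). Beyond 45 Mb the median score was 70 (67 to 73), the median length was 1626 bp and 143 of 435 peaks were kept (32.9%, 28.6 to 37.4). Mean gene density was lower in the first part, with 5.04 protein-coding genes per Mb up to 45 Mb and 9.86 beyond. The genes of the first part were unevenly spread. Its bin at 40 to 45 Mb held 108 of them, and 49 of the 116 TGFB1 peaks. At like score the first part would have kept 60.9% and the second 38.5%. Peaks around 40 to 42 Mb include those of Rpp25l (score 183 in TGFB1) and Smim27 (182), which are among the highest scores of the chromosome.

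Over 10 Mb bins with at least 10 TGFB1 peaks, all 11 bins of chromosome 12 and all 8 of chromosome 16 had a median score below 85.5, the lower quartile of 195 such bins on the other autosomes, as did 11 of 15 bins on chromosome 4. The kept share was below the lower quartile of those bins, 49.1%, in all 11 bins of chromosome 12, all 8 of chromosome 16 and 12 of 15 on chromosome 4. A low kept share chose the chromosomes and by itself favours such bins, so these counts are given as description. Among these bins, the lowest kept shares were 1 of 15 peaks at 40 to 50 Mb of chromosome 16 and 1 of 12 peaks at 20 to 30 Mb of chromosome 12. The highest were 57.7% at 10 to 20 Mb of chromosome 4, 47.4% at 70 to 80 Mb of chromosome 12 and 40.0% at 80 to 90 Mb of chromosome 16.

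**Figure D4:**
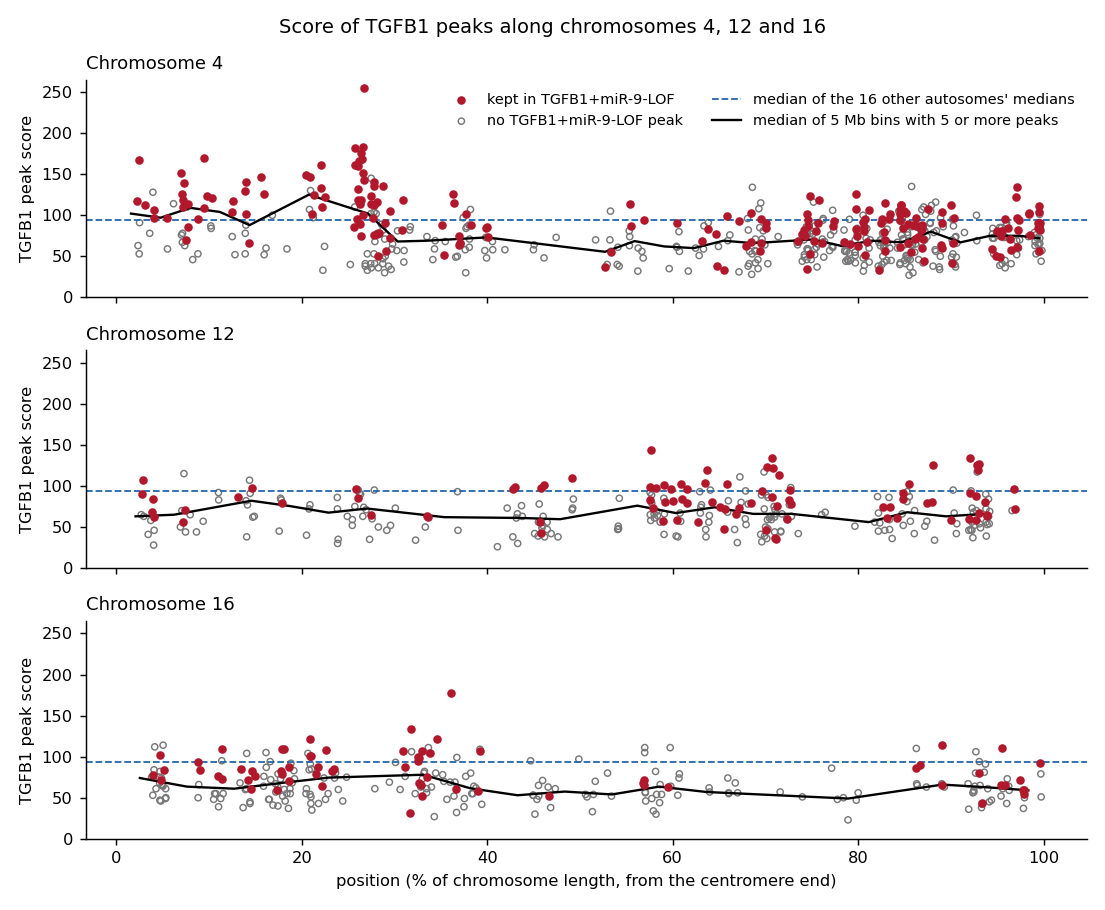
Score of each TGFB1 region (y axis) against its position in percent of chromosome length (x axis) on chromosomes 4, 12 and 16, where filled points were kept in TGFB1+miR-9-LOF, open points had no peak there, the black line joins medians of 5 Mb bins with at least 5 peaks and the dashed line is the median of the other autosomes' medians (94). On chromosome 4 the black line lies between 88 and 125 up to 45 Mb and between 55.5 and 80 beyond.

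Long runs of neighbouring TGFB1 peaks lacked a TGFB1+miR-9-LOF peak, and the genes named within them were chosen after their values were seen. On chromosome 16, 20 consecutive peaks over 19.9 Mb, from Cpox to D16Ertd472e, had none, and they included those of Robo1, an axon guidance receptor, Nrip1, a nuclear receptor corepressor, and Usp25, a deubiquitinase. On chromosome 4, 14 consecutive peaks over 1.78 Mb had none, from Cdc42, a small GTPase of the actin cytoskeleton, to Micos10, a mitochondrial cristae protein, with the mitophagy kinase gene Pink1 and the perlecan gene Hspg2 between them. On chromosome 12, 11 consecutive peaks over 6.26 Mb had none, from Klf11, a transcription factor gene of the TGFB response, to Acp1, with Id2 among them. The longest such run of each other autosome had between 4 and 13 peaks, with a median of 7, so the run of 11 on chromosome 12 lay within that range. Chromosomes 4, 12 and 16 were chosen by a low kept share, which by itself lengthens such runs, so the runs are given as description.

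The comparison of TGFB1 with Ctrl asked how 4 h of TGFB1 changed the set of peaks. Nearly all Ctrl peaks had a TGFB1 peak, 97.1% on chromosome 4 (95.2 to 98.2), 95.9% on chromosome 12 (92.8 to 97.7) and 98.0% on chromosome 16 (95.4 to 99.1), against 97.9% on the other autosomes (97.5 to 98.2). Covered length, the bp of a region under peaks, was slightly larger in TGFB1. The median log2 ratio of TGFB1 over Ctrl was 0.07 on chromosome 4 (interval 0.06 to 0.09), 0.09 on chromosome 12 (0.05 to 0.11) and 0.09 on chromosome 16 (0.05 to 0.14), against 0.06 on the others (0.05 to 0.06). Of 995 regions covered in both libraries, 28 were at least 1.5 times longer in TGFB1 (2.81%, 1.95 to 4.04), against 1.61% on the other autosomes, and 4 were shorter by as much (0.402%), against 0.273%. Among single other autosomes, the longer share was 4.11% on chromosome 13.

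Regions with a TGFB1 peak and no Ctrl peak made up a larger share than on the 16 other autosomes pooled. There were 57 on chromosome 4, 26 on chromosome 12 and 23 on chromosome 16, together 106 of 1101 (9.63%, 8.02 to 11.5), against 5.56% on the other autosomes. Among these, chromosome 18 had 10.2%, above chromosome 12 (9.22%) and chromosome 16 (8.58%), and chromosome 4 had 10.3%. Chromosome X had 21.9%. At like TGFB1 score the share of TGFB1 peaks with a Ctrl peak was 89.8% by the rates of the other autosomes, against 90.4% observed on the 3 chromosomes together. The observed minus the expected share was -1.28 points on chromosome 4, 1.96 on chromosome 12 and 2.93 on chromosome 16. A total of 31 of 1026 Ctrl regions had no TGFB1 peak (3.02%, 2.14 to 4.26), against 2.15%.

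Several of the longest gains are named here. On chromosome 4, Col16a1, a fibril-associated collagen, had no TGFB1+miR-9-LOF peak, 1913 bp in TGFB1 and no peak in Ctrl, whereas Mtor, the growth-controlling kinase, had 1356 bp in TGFB1+miR-9-LOF, 1742 bp in TGFB1 and no peak in Ctrl. On chromosome 12, Ptpn21 (1458 bp), a phosphatase, and the centrosomal gene Cep128 (1450 bp) were covered in TGFB1 and in neither other list. On chromosome 16 the same held for Synj1, a phosphoinositide phosphatase (1819 bp), and Glis2, a zinc finger transcription factor gene (1645 bp). Among the longest regions lost in TGFB1 were those of Tlr4, a receptor for bacterial lipopolysaccharide (1326 bp in Ctrl), on chromosome 4, Rps6ka5, a kinase of histone H3 (1603 bp), on chromosome 12, and an intergenic peak near Mir125b-2 (1077 bp) on chromosome 16. None of these 3 had a peak in TGFB1+miR-9-LOF either.

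On each chromosome the longest TGFB1 peak was one that was shorter in Ctrl. At Togaram1 the covered length was 3190 bp in TGFB1 and 1860 bp in Ctrl, the largest of chromosome 12. At Gpbp1l1 it was 3039 bp in TGFB1 and 1402 bp in Ctrl, the largest of chromosome 4, and at Alg3 it was 2705 bp in TGFB1 and 1288 bp in Ctrl, the largest of chromosome 16. The promoters of all 3 are printed above, and the 3 had no TGFB1+miR-9-LOF peak. They were picked as the longest in TGFB1, and such a choice by itself favours a smaller Ctrl value. The TGFB1 scores of Togaram1, Gpbp1l1 and Alg3 were 47, 46 and 43, in the lowest score bin, in which the other autosomes kept 11.7%. Nfkbia, the inhibitor of NF-kappa-B and itself an early response gene, had 2704 bp in TGFB1 and 1835 bp in Ctrl and no peak in TGFB1+miR-9-LOF. Zbtb1 on chromosome 12, a transcriptional repressor gene, had 2592 bp in TGFB1 and 1133 bp in Ctrl, and Hp1bp3 on chromosome 4, which encodes a heterochromatin-associated linker histone relative, had 1873 bp in TGFB1 and 1017 bp in Ctrl, both without a TGFB1+miR-9-LOF peak. Igf2bp2, an RNA-binding protein gene of chromosome 16, had 2690 bp in TGFB1 and 2036 bp in Ctrl, again with none in TGFB1+miR-9-LOF.

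Among the largest decreases with TGFB1 were a proton pump, a histone chaperone and a translation factor gene. At the promoter that Atp6v1a, the proton pump subunit gene, shares with Naa50 (chromosome 16), the covered length was 1117 bp in TGFB1 and 2606 bp in Ctrl. At Hira, the histone H3.3 chaperone gene of the same chromosome, it was 1691 bp in TGFB1 and 2466 bp in Ctrl. On chromosome 12, Eif5, a translation initiation factor gene, had 1722 bp in TGFB1 and 2304 bp in Ctrl, and on chromosome 4, Tle1, a Groucho family corepressor gene, had 2567 bp in TGFB1 and 3151 bp in Ctrl. None of these 4 had a peak in TGFB1+miR-9-LOF.

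The comparison of TGFB1+miR-9-LOF with TGFB1 asked which promoters still carried a peak after loss of miR-9 function. Of the 363 regions covered in both, 357 were shorter and 6 longer in TGFB1+miR-9-LOF, and the median log2 ratio was -0.54 on chromosome 4 (interval -0.59 to -0.47), -0.57 on chromosome 12 (-0.68 to -0.46) and -0.54 on chromosome 16 (-0.65 to -0.46), against -0.48 on the other autosomes (-0.49 to -0.47). At least 1.5 times shorter were 162 of the 363 (44.6%, 39.6 to 49.8), against 33.7% on the other autosomes, and no region was longer by as much, which was also the case on the others (0% of 4545). By chromosome the shorter share was 43.1%, 46.0% and 47.8% on chromosomes 4, 12 and 16. Among single other autosomes, chromosome 14 had 45.1% shorter and a median log2 ratio of -0.56, and chromosome 3 had 43.8% and -0.55. A peak could not be shorter than 1000 bp in these lists, so a region near that length could be lost but not shortened by 1.5 times.

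Of the 5 longest TGFB1 peaks of each chromosome, 3 were kept in TGFB1+miR-9-LOF on chromosome 4, 3 on chromosome 12 and 0 on chromosome 16. The second longest of chromosome 4, Klhl21, a ubiquitin ligase adaptor gene of cell division, had 1869 bp in TGFB1+miR-9-LOF, 2788 bp in TGFB1 and 2405 bp in Ctrl, and that of chromosome 12, Eif2s1, a translation initiation factor gene, had 1604 bp in TGFB1+miR-9-LOF, 2783 bp in TGFB1 and 2799 bp in Ctrl. Among the long regions without a TGFB1+miR-9-LOF peak on chromosome 4 were, besides Gpbp1l1 and Tle1, Acap3, an Arf GTPase activator gene (2689 bp in TGFB1 and 2329 bp in Ctrl), Epha2, an ephrin receptor gene (2486 bp in TGFB1 and 2353 bp in Ctrl), and Plag1, a growth-related zinc finger gene (2410 bp in TGFB1 and 2740 bp in Ctrl). On chromosome 12 they included Irf2bpl (2621 bp in TGFB1 and 3011 bp in Ctrl), Arf6, a small GTPase gene of membrane traffic (2505 bp in TGFB1 and 1843 bp in Ctrl), and the promoter shared by Smc6 and Gen1, genes of DNA repair (2500 bp in TGFB1 and 2236 bp in Ctrl). On chromosome 16 they included Cggbp1, a CGG repeat binding protein gene (2610 bp in TGFB1 and 1832 bp in Ctrl), Alcam, an adhesion molecule gene (2529 bp in TGFB1 and 2202 bp in Ctrl), and Tomm70a, a mitochondrial import receptor gene (2345 bp in TGFB1 and 1855 bp in Ctrl). The TGFB1 scores of all these regions lay between 46 and 91, in the 3 lower score bins, in which the other autosomes kept 11.7% to 56.9% of their peaks.

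The longest TGFB1+miR-9-LOF region was at Tstd2 on chromosome 4, with 2485 bp in TGFB1+miR-9-LOF, 2220 bp in TGFB1 and 2581 bp in Ctrl. Next on chromosome 4, Tln1, which encodes talin of focal adhesions, had 2161 bp in TGFB1+miR-9-LOF, 2589 bp in TGFB1 and 2374 bp in Ctrl. Dnaja1, an HSP70 cochaperone gene, had 2068 bp in TGFB1+miR-9-LOF, 2373 bp in TGFB1 and 2445 bp in Ctrl, and Map3k7, the kinase TAK1 of TGFB and interleukin signalling, had 1983 bp in TGFB1+miR-9-LOF, 2285 bp in TGFB1 and 2403 bp in Ctrl. On chromosome 12 the longest were Fam110c, with 1921 bp in TGFB1+miR-9-LOF, 2461 bp in TGFB1 and 2197 bp in Ctrl, and Cdc42bpb, a kinase of actomyosin, with 1869 bp in TGFB1+miR-9-LOF, 2208 bp in TGFB1 and 1946 bp in Ctrl. On chromosome 16 the longest was Sim2, a developmental transcription factor gene, with 1794 bp in TGFB1+miR-9-LOF, 2039 bp in TGFB1 and 2158 bp in Ctrl. Ets2, a transcription factor gene downstream of RAS signalling, had 1509 bp in TGFB1+miR-9-LOF, 1788 bp in TGFB1 and 2223 bp in Ctrl.

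A few regions were as long in TGFB1+miR-9-LOF as in TGFB1 or longer. One was the promoter that Tstd2 shares with Ncbp1, a gene of the nuclear cap-binding complex. Esyt2 on chromosome 12 had 1815 bp in TGFB1+miR-9-LOF, 1775 bp in TGFB1 and 2035 bp in Ctrl, and Xxylt1 on chromosome 16 had 1161 bp in TGFB1+miR-9-LOF, 1000 bp in TGFB1 and 1152 bp in Ctrl. Both are genes of the endoplasmic reticulum, the first a lipid transfer tether and the second a glycosyltransferase. The largest shortening of each chromosome was at Setd3, a histidine methyltransferase gene that shares its promoter with the cyclin gene Ccnk on chromosome 12 (1020 bp in TGFB1+miR-9-LOF, 2633 bp in TGFB1 and 2523 bp in Ctrl), at Btf3l4 on chromosome 4 (1000 bp in TGFB1+miR-9-LOF, 2578 bp in TGFB1 and 2361 bp in Ctrl) and at Ranbp1, a RAN regulator gene of chromosome 16 (1065 bp in TGFB1+miR-9-LOF, 2475 bp in TGFB1 and 2057 bp in Ctrl).

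Genes of the TGFB and BMP pathways on these chromosomes mostly had no peak in the library with the antagomiR. Of 18 such genes, 2 had a peak at a start site in TGFB1+miR-9-LOF, 13 in TGFB1 and 13 in Ctrl, so 11 of 13 were lost (84.6%), against 64.3% of the 1205 protein-coding genes of the 3 chromosomes with a TGFB1 peak and 36.9% on the other autosomes. The median TGFB1 score of these genes was 60, against 72 and 98. Tgfbr1, the type I receptor, had no TGFB1+miR-9-LOF peak, 1959 bp in TGFB1 and 1551 bp in Ctrl, and Ski, a repressor of SMAD transcription factors, had none in TGFB1+miR-9-LOF, 2433 bp in TGFB1 and 2506 bp in Ctrl. The ligand gene Tgfb3 had none in TGFB1+miR-9-LOF, 1528 bp in TGFB1 and 1913 bp in Ctrl. Of the target genes, Id2 had none in TGFB1+miR-9-LOF, 1851 bp in TGFB1 and 1715 bp in Ctrl, whereas Id3 had 1399 bp in TGFB1+miR-9-LOF, 1817 bp in TGFB1 and 1507 bp in Ctrl. In TGFB1 over Ctrl, Rock2 (1849 bp in TGFB1 and 1126 bp in Ctrl) and Snw1 (1791 bp in TGFB1 and 1175 bp in Ctrl), a kinase of the cytoskeleton and a coactivator that binds SMADs, were at least 1.5 times longer.

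Early response and stress genes had the largest median lengthening with TGFB1 among the described lists with over 10 genes covered in both libraries. Of 21 genes, 8 had a peak in TGFB1+miR-9-LOF, 18 in TGFB1 and 17 in Ctrl, and the median log2 ratio of TGFB1 over Ctrl was 0.23, with 13 of 17 longer, against a median of 0.09 and 728 longer over 1112 genes of the 3 chromosomes. Hif1a, the hypoxia factor, had 1071 bp in TGFB1+miR-9-LOF, 2058 bp in TGFB1 and 1611 bp in Ctrl, and Socs1, a cytokine signalling inhibitor, had 1000 bp in TGFB1+miR-9-LOF, 2033 bp in TGFB1 and 1477 bp in Ctrl. Klf4 (1863 bp in TGFB1 and 1510 bp in Ctrl) and Hes1 (1873 bp in TGFB1 and 1535 bp in Ctrl), both transcription factor genes, had no TGFB1+miR-9-LOF peak. Jun, the AP-1 subunit, had none in TGFB1+miR-9-LOF, 1825 bp in TGFB1 and 2090 bp in Ctrl, whereas its partner Fos had 1027 bp in TGFB1+miR-9-LOF, 1530 bp in TGFB1 and 1496 bp in Ctrl. A total of 10 of the 18 had no TGFB1+miR-9-LOF peak (55.6%), against 64.3% over all genes of the 3 chromosomes.

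Matrix and cytoskeleton genes were also longer in TGFB1 than in Ctrl by their median. Of 38, 7 had a peak in TGFB1+miR-9-LOF, 26 in TGFB1 and 24 in Ctrl, with a median log2 ratio of 0.20 in TGFB1 over Ctrl and 19 of 23 longer, against 728 of 1112 over all genes of the 3 chromosomes. In TGFB1, 3 of 26 were gained, Col16a1, Marcksl1 and Sdc3, against 93 of 1205 over all those genes. Macf1, a linker of actin and microtubules, had no TGFB1+miR-9-LOF peak, 3821 bp over its start sites in TGFB1 and 3025 bp in Ctrl. Frmd6 on chromosome 12 had 1219 bp in TGFB1+miR-9-LOF, 2299 bp in TGFB1 and 1463 bp in Ctrl. Tpm2, a tropomyosin gene of contractile cells, had no TGFB1+miR-9-LOF peak, 2012 bp in TGFB1 and 1965 bp in Ctrl, and Hspg2 had none in TGFB1+miR-9-LOF, 1694 bp in TGFB1 and 1673 bp in Ctrl. A total of 19 of 26 had no TGFB1+miR-9-LOF peak (73.1%), against 64.3% over all genes of the 3 chromosomes.

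Among 41 mesenchymal and developmental transcription factor genes, 5 had a peak in TGFB1+miR-9-LOF, 16 in TGFB1 and 13 in Ctrl. Of the 16, 11 had none in TGFB1+miR-9-LOF (68.8%), near the 64.3% over all genes of the 3 chromosomes, and 3 were gained over Ctrl, against 93 of 1205 over all those genes. Snai2, a driver of mesenchymal fate, had 1061 bp in TGFB1+miR-9-LOF, 2133 bp in TGFB1 and 2598 bp in Ctrl, and Runx1 had no TGFB1+miR-9-LOF peak, 2479 bp in TGFB1 and 2088 bp in Ctrl. Bcl6, a transcriptional repressor gene, and Etv1, an ETS family factor gene, had a peak in TGFB1 (1534 and 1358 bp) and in neither other list. The mesenchymal factor gene Twist1 and the lung factor genes Nkx2-1 and Foxa1 had no peak in any list. Of the 6 lung epithelium and 5 endothelium genes listed for these chromosomes, none had a peak, and of 22 immune genes 1 had one, Vpreb1, in TGFB1 and in Ctrl. Of 17 neural genes, 1 had a peak in TGFB1+miR-9-LOF, 3 in TGFB1 and 3 in Ctrl.

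**Figure D5:**
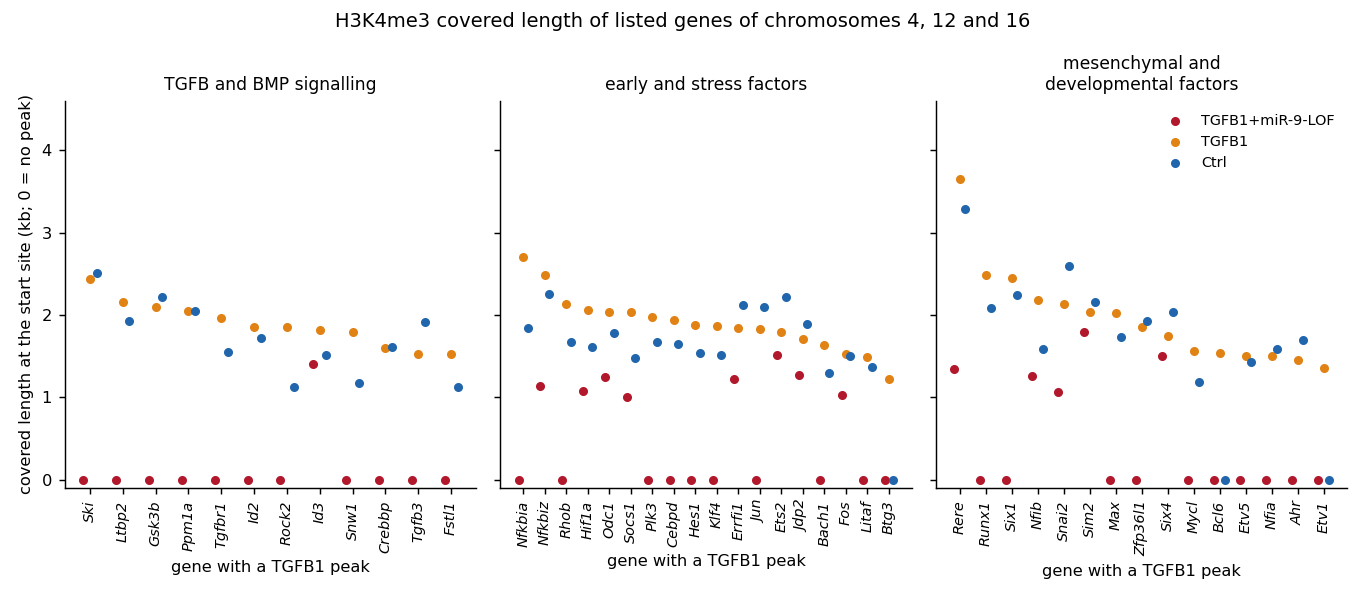
Covered length of H3K4me3 at the start sites (y axis, kb) of genes of chromosomes 4, 12 and 16 with a TGFB1 peak, in 3 lists (TGFB and BMP signalling, early and stress factors, mesenchymal and developmental factors), for the TGFB1+miR-9-LOF, TGFB1 and Ctrl libraries, 1 each, with points at 0 for no peak. In TGFB1+miR-9-LOF, 11 of the 12 genes drawn of the first list, 10 of 18 of the second and 10 of the 15 drawn of the third lie at 0.

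The remaining lists held housekeeping and regulatory genes, and differences between lists were not tested. Of 35 genes of translation, proteostasis and mitochondria with a TGFB1 peak, 20 had none in TGFB1+miR-9-LOF (57.1%), with a median TGFB1 score of 86. Rps20, Rps6, Rpl11 and Rpl22 of chromosome 4 kept a peak of 1262 to 1464 bp in TGFB1+miR-9-LOF, against 1918 to 2359 bp in TGFB1, and Rps29 and Rps7 of chromosome 12 and Rpl24 and Rpl35a of chromosome 16 had none. Of 38 chromatin and transcription genes 19 were lost (50%, median score 71.5), and of 28 cell cycle and tumour suppressor genes 18 were lost (64.3%, median score 77). In the microRNA processing list, Dgcr8, a subunit of the microprocessor, had 1156 bp in TGFB1+miR-9-LOF, 1677 bp in TGFB1 and 2006 bp in Ctrl, and Ago3 had 1028 bp in TGFB1+miR-9-LOF, 1822 bp in TGFB1 and 1954 bp in Ctrl. Dicer1 had no TGFB1+miR-9-LOF peak, 1446 bp in TGFB1 and 1652 bp in Ctrl.

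Genes of one family could be compared between the 3 chromosomes and the other autosomes. Among ribosomal protein genes with a TGFB1 peak, 5 of 9 on the 3 chromosomes were kept (55.6%, 26.7 to 81.1), against 60 of 66 on the others (90.9%, 81.6 to 95.8), with median TGFB1 scores of 94 (87 to 124) and 127.5 (110 to 145). Among translation initiation factor genes, 5 of 9 were kept (26.7 to 81.1), against 34 of 37 (91.9%, 78.7 to 97.2), with median scores of 79 (72 to 101) and 126 (107 to 144). Mitochondrial ribosomal protein genes kept 2 of 7 peaks, against 49 of 71, and Zfp genes kept 6 of 19, against 128 of 257. Solute carrier genes kept 5 of 16, against 68 of 122, and proteasome genes kept 4 of 6, against 33 of 37. Complex I genes, with median scores of 126 and 122.5, kept 3 of 5 peaks (23.1 to 88.2%), against 30 of 36 (68.1 to 92.1%). The kept share chose the chromosomes, so these shares are a description. All groups but the Zfp and the solute carrier genes had 9 or fewer genes on the 3 chromosomes.

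GC content under the peaks was close to that of the other autosomes, and CpG content was slightly higher. In windows of 1 kb at the centre of each TGFB1 peak, the median GC content was 59.1% on chromosome 4, 58.4% on chromosome 12 and 58.6% on chromosome 16, against 58.6% on the other autosomes. CpG dinucleotides numbered 6.4, 6.45 and 6.3 per 100 bp on chromosomes 4, 12 and 16, against 6, and the single other autosomes ranged between 5.4 and 6.4, so chromosome 12 was the highest of the 19. Over the 3 chromosomes together it was 6.4 (interval 6.2 to 6.6), against 6 (5.9 to 6.1). The GC box GGGCGG, on either strand, was in 82.9% of the windows of the 3 chromosomes, against 82.2%. In the RefSeq promoter windows of 300 bp, the GC box was in 37.4% of 4404 on the 3 chromosomes, against 35.7% of 26961 on the other autosomes, and on the 3 chromosomes it was in 72.5% of those under both a TGFB1 and a TGFB1+miR-9-LOF peak (67.5 to 77.0) and in 70.9% of those under a TGFB1 peak only (67.7 to 73.9).

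Since the study dealt with G-quadruplexes, four-stranded structures of guanine-rich DNA, the windows were also searched for 4 runs of GGG separated by 1 to 7 bases, on either strand. Such a match was in 52.2% of the 1101 TGFB1 peak windows of the 3 chromosomes (49.3 to 55.2), against 53.4% on the other autosomes (52.3 to 54.5). It was less frequent in kept peaks in both groups. On the 3 chromosomes 47.7% of kept windows (42.6 to 52.8) and 54.5% of windows without a TGFB1+miR-9-LOF peak (50.9 to 58.0) had a match, and on the others 49.5% (48.1 to 51.0) and 58.8% (57.1 to 60.5). Of the printed promoters, those of Gpbp1l1 and Pdia5 had a match within their 300 bases, as did 18.8% of all autosomal promoter windows. A match is a property of the letters and was not tested as a site.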

How the data were processed

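H3K4me3 ChIP-seq (antibody ab8580) was measured in 3 MLg libraries, 1 per group, as the labels assign them. Per the labels and the study's methods, the authors trimmed reads with Trimmomatic, aligned them to mm10 with Bowtie2, processed them with Picard 1.119 and deepTools 3.5.1, called broad peaks with MACS3, filtered with bedtools and annotated with HOMER. Some of these steps are stated for another assay of the study, and whether an input control was used is not given in the sources used here. The deposited score of each peak is the value the authors' peak caller gave, copied by the annotation, and is not scaled between libraries, so scores were compared within a list. No reads were used here and the depth is unknown. All 3 lists were used, and 0 columns of sample values were left out.

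Peaks overlapping by at least 1 bp in any list were merged into regions, and covered length is the bp of a region under a library's peaks. A gene carried a peak where a region lay within 500 bp of a start site, and genes that share a promoter share its values. Longer and shorter mean any difference in covered length, except where 1.5 times is stated. Wilson intervals (95%) for shares and order-statistic intervals for medians cover counting error over peaks or genes only. Expected shares applied the rates of the 16 other autosomes in 5 score bins. Python 3.11.15, numpy 2.4.6, pandas 2.3.3, scipy 1.17.1 and matplotlib 3.10.9 were used, and the counting was tested on simulated data. Alternatives were a score minimum of 50, promoter peaks only (within 2 kb), an overlap of 50% of the peak, the widest peak per region, chromosome length without unknown bases, a background with the X chromosome, 10 score bins, and bins of Ctrl score or TGFB1 length, of which the last pair and the split of chromosome 4 were chosen after seeing the data.

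Named genes were, per chromosome, the longest and highest-scoring peaks, the largest increases, decreases, gains and losses per comparison, genes beside the longest empty stretches, and members of gene lists. The chromosomes, the lists and the tests were chosen with earlier results of these data known, so they support nothing independently. Some genes are not reported here. No test across samples was possible with 1 library per group.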

Additional observations from a re-analysis of the deposited data

How the results depend on the processing

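Of the values recomputed under alternatives for 30 results, 76 stayed within the 95% interval of the reported value (counts within 1.5 times), 29 did not and 0 changed sign. Only the log2 ratios and the differences between shares could change sign. Of the 76, 21 came from the widest peak per region, which could change little. Each region of the 3 chromosomes held at most 1 peak per library. With peaks of score 50 or more only, chromosomes 4, 12 and 16 had 2.95, 1.85 and 2.25 TGFB1 peaks per Mb, with median scores of 80, 73 and 70, and median lengths of 1706 bp on chromosome 4 and 1725 bp on chromosome 12. Ctrl peaks shared with TGFB1 were then 92.6%, 90.1% and 89.5%, and TGFB1 peaks kept in TGFB1+miR-9-LOF were 11.9%, 4.95% and 4.07%, against a median of 24.1% on single other autosomes. Chromosome 18, with 11.3%, then lay below chromosome 4, which had the fourth lowest share. Regions gained in TGFB1 over Ctrl were 97 on chromosome 4 and 59 on chromosome 16, and the median log2 ratio of TGFB1+miR-9-LOF over TGFB1 on chromosome 4 was -0.42. Scores differ in scale between libraries, so this minimum removes different shares of each list.

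The kept share minus that of the 16 other autosomes was -20.6, -27.7 and -33.6 points on chromosomes 4, 12 and 16 without regard to score. It was -5.27, -5.38 and -10.7 points at like TGFB1 score in 5 bins, -4.79, -4.60 and -9.69 points in 10 bins, -5.79, -8.36 and -13.9 points at like Ctrl score, and -12.9, -18.6 and -23.1 points at like TGFB1 length. Promoter peaks only, an overlap of 50%, the widest peak per region, chromosome length without unknown bases and a background with the X chromosome moved no result by more than its interval. The overlap rule does not enter density, length or score. No paired analysis was possible because each group has 1 library.

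With 1 library per group, no input stated and no reads used here, differences between libraries in depth, antibody efficiency or library complexity cannot be told apart from differences in H3K4me3. Score and length follow enrichment and depth, and a peak near the calling limit can be lost without a large change in signal. Copy number of the described chromosomes, or of parts of them, in MLg cells could not be checked without reads or input. Its part in the differences between chromosomes within a list was not tested.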
